A study of Mus musculus with 9 samples.

Results

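The PPAR, ERR and PGC-1 factors are 9 genes of the deposited count table, chosen by symbol from its 15824 genes: the nuclear receptor genes Ppara, Ppard and Pparg, the estrogen-related receptor genes Esrra, Esrrb and Esrrg, and the coactivator genes Ppargc1a, Ppargc1b and Perm1. All 9 passed the filter on low counts. RNA was measured in 9 libraries of isolated cardiomyocytes of CD1 mice, 3 each at postnatal day 1 (P1), day 14 (P14) and day 56 (P56), with ribosomal RNA removed and no treatment or genotype given in the sample labels. Each library pooled 12 hearts at P1 and 6 to 7 hearts at P14 and P56, so the spread between libraries is not that between animals. The protocols shared by all samples describe Percoll or Langendorff isolation of whole cells a few days after surgery as well as sorting of Pcm1 nuclei, and which steps apply to these libraries is not settled by the labels. The 3 libraries of an age are called a biological triplicate in the design text.

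PPARs are nuclear receptors that bind fatty acids and their derivatives and act on DNA as heterodimers with the retinoid X receptors (RXRs). ERRs are orphan receptors, and no natural ligand is needed for their activity. They bind an extended single hexamer near genes of the respiratory chain and the TCA cycle. PGC-1 coactivators bind both kinds of receptor and raise transcription of genes for mitochondria and fatty acid oxidation, the main fuel route of the adult heart, and Perm1 is a muscle protein induced by PGC-1 and ERR that acts in the same programme.

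The counts of these genes appear to cover whole genes, introns included, and 1 strand. Of 124 coding genes that lie wholly inside a counted coding gene on the same strand without sharing an exon base with it, 1 (0.806%) was in the count table. Of 293 such genes on the opposite strand 124 (42.3%) were, and of all 22028 annotated coding genes 60.9%. Counting over exons would leave both kinds of nested gene in place, although the counting settings are not given in the sources used here. This matters for the members because exons make up 1.02% of Esrrg, which spans 606095 bases, and 71.7% of Perm1, which spans 5440 bases. Levels of different members are therefore compared per whole-gene length, with the exon-length values beside them.

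In GRCm38 the PPAR genes lie on the plus strand, Ppara (ENSMUSG00000022383) at chr15:85734983-85802819, Ppard (ENSMUSG00000002250) at chr17:28232700-28301474 and Pparg (ENSMUSG00000000440) at chr6:115360951-115490399. Esrra (ENSMUSG00000024955) lies on the minus strand at chr19:6910977-6921813, Esrrb (ENSMUSG00000021255) on the plus strand at chr12:86361117-86521628 and Esrrg (ENSMUSG00000026610) on the plus strand at chr1:187608791-188214885. Of the coactivator genes, Ppargc1a (ENSMUSG00000029167) is on the minus strand at chr5:51454250-51567726, Ppargc1b (ENSMUSG00000033871) on the minus strand and Perm1 (ENSMUSG00000078486) on the plus strand at chr4:156215868-156221307. On their own strand, Esrra shares 91 exon bases with the microRNA gene Mir6990 and Ppargc1b holds the microRNA gene Mir378a in an intron, and how reads there were assigned is not given. Esrra also shares 73 exon bases with Trmt112 on the opposite strand, whose reads would be kept apart only if the counting used strand.

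Promoter windows of the PPAR genes are shown because all 3 genes rose in the first interval and because Pparg has several annotated starts, which a count per gene cannot tell apart. The 250 bases before each RefSeq start (GRCm38.p6, plus strand in each case) are printed, and capitals mark the single match found in the 14 windows of 8 members, a palindromic NRF1 site that begins 31 bases before the Ppara start.
Ppara, chr15:85735526-85735775: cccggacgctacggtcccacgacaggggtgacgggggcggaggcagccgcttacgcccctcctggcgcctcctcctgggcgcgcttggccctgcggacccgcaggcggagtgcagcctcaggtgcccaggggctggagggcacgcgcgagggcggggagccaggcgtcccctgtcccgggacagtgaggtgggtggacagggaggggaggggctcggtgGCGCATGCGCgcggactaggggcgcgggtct
Ppard, chr17:28232504-28232753: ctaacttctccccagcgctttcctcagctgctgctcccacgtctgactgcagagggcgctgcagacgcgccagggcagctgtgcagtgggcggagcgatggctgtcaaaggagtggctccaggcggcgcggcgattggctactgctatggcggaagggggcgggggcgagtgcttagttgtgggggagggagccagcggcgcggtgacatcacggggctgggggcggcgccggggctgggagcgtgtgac
Pparg, the first start, chr6:115360894-115361143: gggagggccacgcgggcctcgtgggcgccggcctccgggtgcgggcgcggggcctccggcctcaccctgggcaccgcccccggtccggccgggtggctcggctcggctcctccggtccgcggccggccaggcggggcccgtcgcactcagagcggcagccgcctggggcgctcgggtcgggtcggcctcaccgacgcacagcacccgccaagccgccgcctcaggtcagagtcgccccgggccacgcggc
Pparg, the third start, chr6:115421816-115422065: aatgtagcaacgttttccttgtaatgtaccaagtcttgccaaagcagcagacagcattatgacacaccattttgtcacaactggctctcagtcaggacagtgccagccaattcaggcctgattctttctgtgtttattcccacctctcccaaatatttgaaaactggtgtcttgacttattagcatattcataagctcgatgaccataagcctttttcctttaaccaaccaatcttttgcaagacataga
The first Pparg window was 82.4% GC, the second, which is not printed, 63.6% and the third 40.8%. Ppara had 76.4% and Ppard 69.6%, and the median over all 32851 windows was 52.4%. NRF1 is a factor of mitochondrial biogenesis, and its letters were present in 0.782% of all windows. The other motifs searched on both strands were the ERR element TNAAGGTCA (1.14% of all windows), the PPAR element, a direct repeat of AGGTCA with a base between (0.0335%, and sharing AGGTCA with the ERR element), the cAMP response element TGACGTCA (1.55%) and the GABP site CCGGAAGT (2.88%). These letters were in no member window, which says nothing about binding elsewhere. Ppargc1b had no window here.

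Library totals were 36619799 to 58538025 counts, and the 9 members took 0.383% to 0.491% of them. The 10 cardiomyocyte markers summed to between 51561 and 61547 CPM (counts per 1e6 counts of a library, after scaling) in P1 libraries, with 60307 to 92846 for P14 and 55341 to 79126 for adults. Most of these sums came from Ttn and Ryr2, with means of 31862 and 17420.3 CPM at P1. Neither of these genes was called from P1 to P14 (adjusted p = 0.0576 and 0.521, edgeR). Other cell types left RNA too. Their score (the mean log2 CPM of 45 measured markers of endothelial cells, fibroblasts, leukocytes, smooth muscle and pericytes, epicardium and adipocytes) ranged over 1.41 to 1.97 in P1 libraries, 2.55 to 3.72 in P14 libraries and 0.57 to 1.65 in adult ones. Within P14, replicate 1 had the highest score, with 599 CPM in summed endothelial markers, and replicate 3 the lowest, with 237. Fibroblast markers summed to between 157 and 317 CPM for P1, 218 and 804 for P14, and 50.5 and 99.3 for P56, and of the 45 markers only Msln, an epicardial one, was at 0 in any library. In this bulk RNA, fewer cells of a type and less RNA per cell cannot be told apart.

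Most members were lowest in the library with the highest score of its age. At P14, 7 of the 9 members were lowest in replicate 1 (37.6% of all 15817 genes were) and 8 were highest in replicate 3 (38.3% of all genes). Pparg went the other way at P14 and was highest in replicate 1. At P56, 7 members were lowest in replicate 1, the library with the highest score of that age (38.8% of all genes), but only 4 were highest in replicate 3, which had the lowest (28.9%). At P1 all 9 were lowest in replicate 3, which had the highest score there (37.5%), and 7 were highest in replicate 2, which had the lowest (33.7%). The part of these cells in the changes below was not tested, and values from a fit that holds the score as a second term are given where a call or a direction changed.

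**Figure D1:**
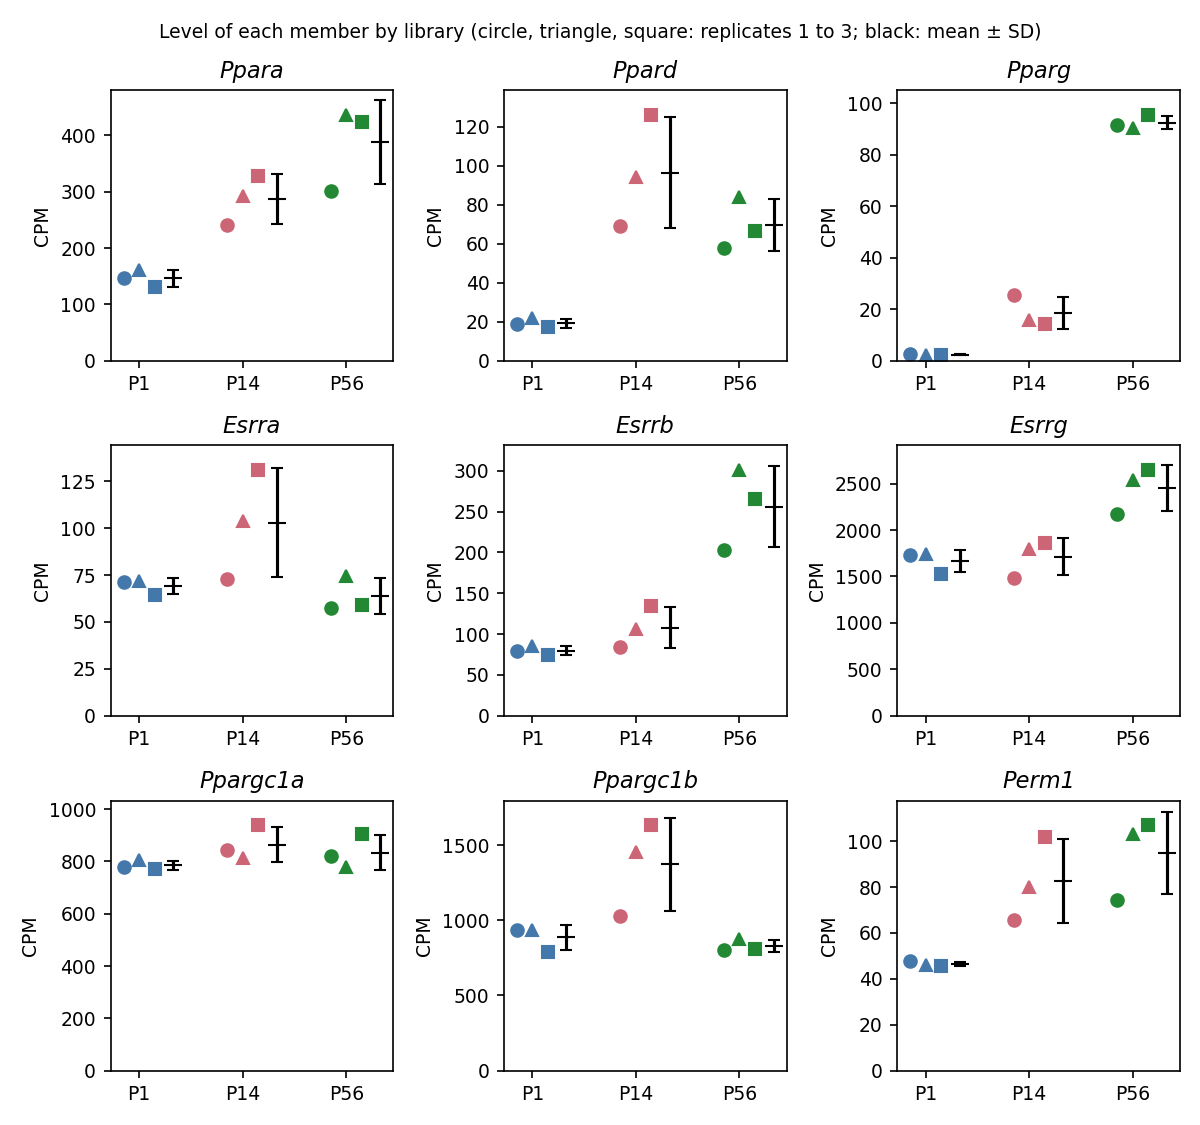
CPM of each member (y axis, linear from 0) in each library by age (x axis), with circles, triangles and squares for replicates 1 to 3 and black bars for mean ± SD of 3 libraries. Pparg steps from about 2 to over 90 CPM, whereas Ppargc1a stays between 771 and 939 CPM in all 9 libraries.

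From P1 to P14, 6 of the 9 members rose and 0 fell at an adjusted p under 0.05 (quasi-likelihood test of edgeR), where 55.9% of all genes were called, 28.4% as higher and 27.5% as lower. All 3 PPAR genes were among the rises. From P14 to P56, 4 members rose and 2 fell, with 56.0% of all genes called, 27.5% higher and 28.5% lower. With GC offsets 5431 genes were called higher and 2957 lower there, against 4356 and 4504 without. From P1 to P56 again 6 members rose and 0 fell, with 62.6% of all genes called, 30.9% higher and 31.7% lower. The share of members called in either direction was thus near that of all genes. Libraries of the 2 ages did not overlap for 7 of the 9 members between P1 and P14 (63.9% of all genes), 4 between P14 and P56 (59.5%) and 6 between P1 and P56 (72.2%). The median log2 change of the members was 0.63, 0.20 and 1.03 in the 3 comparisons, beside 0.00, −0.02 and −0.03 over all genes. These comparisons share libraries, P14 standing in both intervals. Any difference among the ages was called for 8 of 9 members, all but Ppargc1a, and for 78.0% of all genes. The 2 intervals differed for 3 members, each with the lower value in the second, where 50.0% of all genes were called, 24.1% higher and 26.0% lower (3809 and 4107 genes, but 4303 and 2620 with GC offsets).

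Pparg, the receptor best known from fat cells and macrophages, made the largest change of the 9. It stood at 2.66, 2.31 and 2.14 CPM in the P1 libraries, at 25.6, 15.9 and 14.2 CPM at P14 and at 91.7, 90.4 and 95.4 CPM at P56. The ages did not overlap, and the adult libraries lay close together. The log2 change was 2.97 ± 0.21 (SE) from P1 to P14 (adjusted p = 3.23e-06, edgeR), 2.32 ± 0.19 from P14 to P56 (adjusted p = 1.19e-05) and 5.28 ± 0.22 over the whole span, a 38.9-fold rise (adjusted p = 4.73e-08). Its 2 steps did not differ past the threshold (−0.65 ± 0.33, adjusted p = 0.126), and without P14 replicate 3 they did (−0.97, adjusted p = 0.0244, and up to 0.841 over the alternatives). Pparg is also expressed by endothelial cells, and its P14 level was highest in the library with most endothelial RNA. The P1 and P56 ranges of summed endothelial markers, 76.9 to 108 and 42.9 to 104 CPM, overlapped. The part of endothelial RNA in the Pparg values was not tested. With the score as a term the changes of Pparg were 2.50, 2.98 and 5.48, all called. Of 9 adipocyte markers only Cidea was measured, which cardiomyocytes may also express, at 7.39 to 13.1 CPM in the 9 libraries. The other 8 were not among the genes tested, so no value is given for them.

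Ppara, the main fatty acid sensor of heart muscle, was at 146, 161 and 130.2 CPM at P1, 241, 293 and 328 at P14, and 302, 436 and 424 at P56. The P1 libraries lay below all others, and the P14 and P56 ranges overlapped through P56 replicate 1. The whole rise was 2.66-fold (log2 1.41 ± 0.16, adjusted p = 2.80e-05, edgeR), of which 0.98 ± 0.15 fell in the first interval (adjusted p = 0.000511). The second step, 0.43 ± 0.15 (adjusted p = 0.0354, and 0.00453 to 0.123 over the alternatives), was not firm. It was lost without P1 replicate 1 (adjusted p = 0.0529), P14 replicate 1 (0.0906), P14 replicate 2 (0.0768), P56 replicate 2 (0.123) or P56 replicate 3 (0.114) and under upper quartile scaling (0.0582). Adding the marker score turned it to −0.46 (adjusted p = 0.072). The 2 intervals differed by −0.55 ± 0.26 (adjusted p = 0.111), and by −2.05 with the score as a term (adjusted p = 0.000593, and up to 0.681 over the alternatives).

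Ppard, a widely expressed receptor that shares many targets with Ppara, peaked at P14. Its CPM values were 18.6, 21.8 and 17.2 at P1, 69.2, 94.2 and 126 at P14, and 57.9, 84.0 and 66.7 at P56. Both later ages stood apart from P1 and overlapped each other. It rose 5.02-fold by P14 (log2 2.33 ± 0.22, adjusted p = 1.77e-05, edgeR). The later change was −0.47 ± 0.20 (adjusted p = 0.0746), which passed without P14 replicate 1 (−0.66, adjusted p = 0.00618) and without P56 replicate 2 (−0.63, adjusted p = 0.0411), and with DESeq2 (−0.47, adjusted p = 0.0444). With the score as a term it was −1.51 (adjusted p = 0.00224), a called fall, and the adjusted p ranged up to 0.512 over the alternatives. Adults kept 3.62 times the P1 level (adjusted p = 3.59e-05), and the 2 intervals differed (−2.80 ± 0.34, adjusted p = 0.000183).

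Esrrb, the ERR best known from embryonic stem cells, was called as a rise after P14 but not before it. It was at 78.7, 85.7 and 74.4 CPM at P1 and 84.4, 106 and 135 at P14, then at 203, 301 and 265 at P56. The P1 and P14 ranges overlapped, and every P56 library lay above both. The first change was 0.45 ± 0.17 (adjusted p = 0.0521, 0.00687 without P14 replicate 1, where it was 0.60, and 0.00012 to 0.401 over all alternatives), the second 1.24 ± 0.18 (2.36-fold, adjusted p = 0.000288, edgeR). The 2 intervals did not differ past the threshold (0.80 ± 0.31, adjusted p = 0.0539, and 0.00396 to 0.164 over the alternatives). Once the score was a term the order turned, with 1.11 for the first and 0.27 for the second (adjusted p = 0.353), while the whole span kept its call (1.38, against 1.69 ± 0.18 without the score).

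Esrrg, the ERR that is abundant in heart and other oxidative tissues, had the highest counts of the family. Its values were 1728, 1744 and 1527 CPM at P1, 1483, 1794 and 1861 at P14, and 2174, 2544 and 2646 at P56. P1 and P14 overlapped and P56 stood above both. It changed by 0.04 ± 0.11 in the first interval (adjusted p = 0.775) and rose 1.43-fold in the second (log2 0.52 ± 0.11, adjusted p = 0.00269, edgeR). Its 2 intervals did not differ past the threshold (0.48 ± 0.19, adjusted p = 0.0589, and 0.0302 to 0.449 over the alternatives). Fitted with the score, the second value was −0.04 (adjusted p = 0.877) and the first 0.42 (adjusted p = 0.00805), and the whole span stayed called (0.38, against 0.56 ± 0.11).

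Esrra, the ERR that PGC-1 induces and works through in many tissues, was highest at P14. It stood at 71.5, 71.9 and 64.1 CPM at P1, 72.9, 104 and 131 at P14, and 57.2, 74.6 and 59.0 at P56. P14 replicate 1 stood just above the highest P1 library, and the other P14 libraries well above it, while P56 overlapped both earlier ages. The rise of 0.57 ± 0.18 (adjusted p = 0.0239, edgeR) was lost when any P1 replicate, P14 replicate 2 or P14 replicate 3 was left out (adjusted p = 0.0519 to 0.0806, with a value of 0.35 without P14 replicate 3). It was also lost with GC offsets (0.48, adjusted p = 0.0602). The fall of −0.69 ± 0.18 after P14 (adjusted p = 0.00988) kept its call in all 18 alternatives, as did the difference between the intervals (−1.26 ± 0.31, adjusted p = 0.0078). P56 and P1 differed by −0.12 ± 0.18 (adjusted p = 0.587), and with the score as a term by −0.37 (adjusted p = 0.0445, and up to 0.899 over the alternatives).

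Ppargc1a, which encodes PGC-1α, the coactivator induced by cold, fasting and exercise, was the 1 member with no call. Its CPM values were 779, 805 and 771 at P1, 842, 812 and 939 at P14, and 819, 778 and 906 at P56. The changes were 0.14 ± 0.08, −0.05 ± 0.08 and 0.09 ± 0.08 in the 3 comparisons (adjusted p = 0.152, 0.596 and 0.344, edgeR). The libraries of P1 and P14 did not overlap, but P56 overlapped both. Fitted with the score, the first change was called (0.33, adjusted p = 0.023, and up to 0.44 over the alternatives).

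Ppargc1b, which encodes the related coactivator PGC-1β, peaked at P14 as Esrra did. It was at 932, 938 and 791 CPM at P1, 1027, 1457 and 1633 at P14, and 799, 874 and 808 at P56. All P14 libraries lay above all others, and P1 and P56 overlapped. The rise was 1.55-fold (log2 0.63 ± 0.15, adjusted p = 0.00517, edgeR), the fall −0.73 ± 0.15 (adjusted p = 0.0023) and their difference −1.36 ± 0.25 (adjusted p = 0.00169). None of these 3 calls held with offsets for GC content, where the values were 0.27 (adjusted p = 0.17), −0.18 (0.364) and −0.45 (0.2), each the highest adjusted p of the alternatives. Pprc1, the remaining gene of the PGC-1 family and no member, stood at 16.4 ± 0.799, 19.4 ± 1.94 and 14.2 ± 1.38 CPM (SD, n = 3) and fell by 0.45 ± 0.10 after P14 (adjusted p = 0.00401).

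Perm1 was at 47.7, 46.1 and 45.8 CPM at P1, 65.7, 80.0 and 102 at P14, and 74.3, 103 and 107 at P56. The P1 libraries lay close together and below all later ones, which overlapped. It rose 1.77-fold by P14 (log2 0.83 ± 0.17, adjusted p = 0.00217, edgeR) and stood 2.04-fold higher at P56 than at P1 (1.03 ± 0.17, adjusted p = 0.00041). The step after P14 was 0.20 ± 0.17 (adjusted p = 0.325). That step became a rise with GC offsets (0.54, adjusted p = 0.0246) and without P14 replicate 3 (0.38, adjusted p = 0.0496), and a fall with the score as a term (−0.76, adjusted p = 0.00916), the highest adjusted p of the alternatives being 0.75. The 2 intervals differed by −0.63 ± 0.28 (adjusted p = 0.0928), and by −2.24 with the score as a term (adjusted p = 0.000389, and up to 0.804 over the alternatives).

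**Figure D2:**
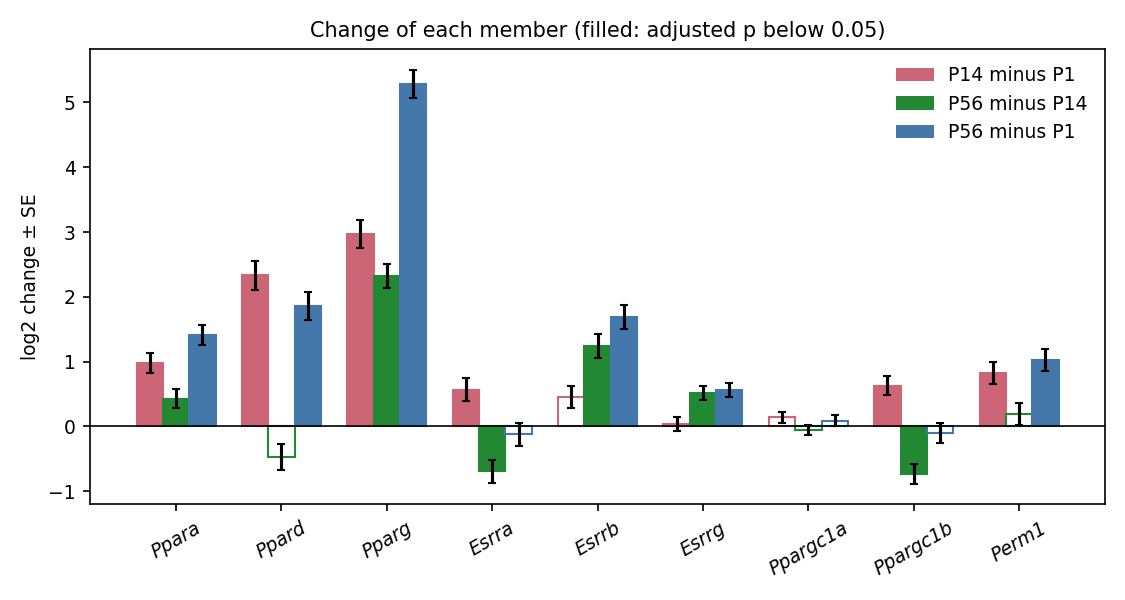
Fitted log2 change (y axis, bars ± SE) of each member in the 3 comparisons, with filled bars at adjusted p under 0.05 by edgeR. The PPAR bars are all above 0 in the first interval, while Esrra and Ppargc1b turn from a rise to a fall.

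Per whole-gene length at P1 and P56, Perm1 and the PGC-1 genes led and Pparg was last. At P1 Ppargc1b stood at 8.67 ± 0.813 CPM per kb of whole gene (SD, n = 3) and Perm1 at 8.55 ± 0.188, which overlapped. Ppargc1a (6.92 ± 0.160), Esrra (6.38 ± 0.407), Esrrg (2.75 ± 0.199), Ppara (2.15 ± 0.227), Esrrb (0.496 ± 0.0355), Ppard (0.279 ± 0.0342) and Pparg (0.0183 ± 0.00202) followed without overlap between neighbours. At P14 the order was Perm1 (15.2 ± 3.38), Ppargc1b (13.4 ± 3.04), Esrra (9.46 ± 2.68) and Ppargc1a (7.62 ± 0.589), each overlapping the next, with Pparg last (0.143 ± 0.0476). At P56 Perm1 was first (17.5 ± 3.31) with no overlap with the next. Ppargc1b (8.08 ± 0.398), Ppargc1a (7.35 ± 0.574) and Esrra (5.87 ± 0.883) overlapped in turn with their neighbours, Esrra with Ppara (5.71 ± 1.09), and Pparg was still last (0.715 ± 0.0199). Per kb of exon the order differs, with Esrrg first at P1 (268 ± 19.5) and Perm1 the 7th of 9 (11.9 ± 0.262), and at P56 Pparg (31.3 ± 0.870) the 6th and Ppard last (9.26 ± 1.77).

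Within the PPAR family the share of Pparg was larger at each later age, given as a description. Per whole-gene length Pparg made up 0.752% ± 0.0899 of the 3 PPAR levels at P1, 2.63% ± 1.35 at P14 and 9.80% ± 1.78 at P56 (SD, n = 3), and per exon length 1.95%, 6.98% and 22.5%. Ppard held 11.4% ± 0.342, 23.9% ± 2.95 and 13.6% ± 1.27 per whole-gene length. The log2 ratio of Pparg to Ppara counts was −5.94 ± 0.170 at P1, −3.99 ± 0.674 at P14 and −2.05 ± 0.289 at P56. Library scaling does not alter such a ratio, and the length used does not alter its change between ages, though its value carries both gene lengths. These ratios differed among ages (exact permutation p = 0.00357 on the F statistic, the smallest that 1680 assignments of the libraries allow, and adjusted p = 0.00714 over 6 ratios). The ratio of Ppard to Ppara differed too (−2.93 ± 0.0477, −1.61 ± 0.211 and −2.48 ± 0.167; exact permutation p = 0.00357, adjusted p = 0.00714).

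Which ERR leads depends on the length used. Esrra made up 66.3% ± 0.227 of the family per whole-gene length at P1, 72.5% ± 3.09 at P14 and 50.9% ± 3.00 at P56, but 5.30%, 7.27% and 3.21% per exon length, where Esrrg held 90.3%, 87.1% and 87.5%. Esrrb held 5.15% ± 0.198 at P1 and 13.8% ± 1.14 at P56 per whole-gene length, and 4.43% and 9.32% per exon length. Its log2 count ratio to Esrra was 0.20 ± 0.0588, 0.10 ± 0.10 and 2.00 ± 0.171 at the 3 ages (exact permutation p = 0.00714, adjusted p = 0.0107). It lay between 1.83 and 2.17 in the P56 libraries and between 0.03 and 0.25 in the earlier ones. The ratio of Esrrg to Esrra was 4.59 ± 0.0134, 4.10 ± 0.258 and 5.27 ± 0.199 (exact permutation p = 0.00357, adjusted p = 0.00714).

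Between the PGC-1 genes, Ppargc1b held 55.5% ± 2.03 per whole-gene length at P1, 63.3% ± 5.03 at P14 and 52.4% ± 2.88 at P56. Its relation to Ppargc1a, as the log2 ratio of Ppargc1a to Ppargc1b, was −0.17 ± 0.118, −0.64 ± 0.309 and 0.01 ± 0.167 (exact permutation p = 0.0143, adjusted p = 0.0143). This call was lost without P1 replicate 1 (adjusted p = 0.05, not below it), P1 replicate 2 (0.0571), P56 replicate 1 (0.0607) or P56 replicate 3 (0.0571). The ratio tests were not repeated with the score or with GC offsets, under which Ppargc1b itself lost its calls. Perm1 relative to Ppargc1a stood at −4.08 ± 0.0484, −3.41 ± 0.246 and −3.15 ± 0.280 (exact permutation p = 0.0107, adjusted p = 0.0129), a call lost without P1 replicate 2 (adjusted p = 0.0557).

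**Figure D3:**
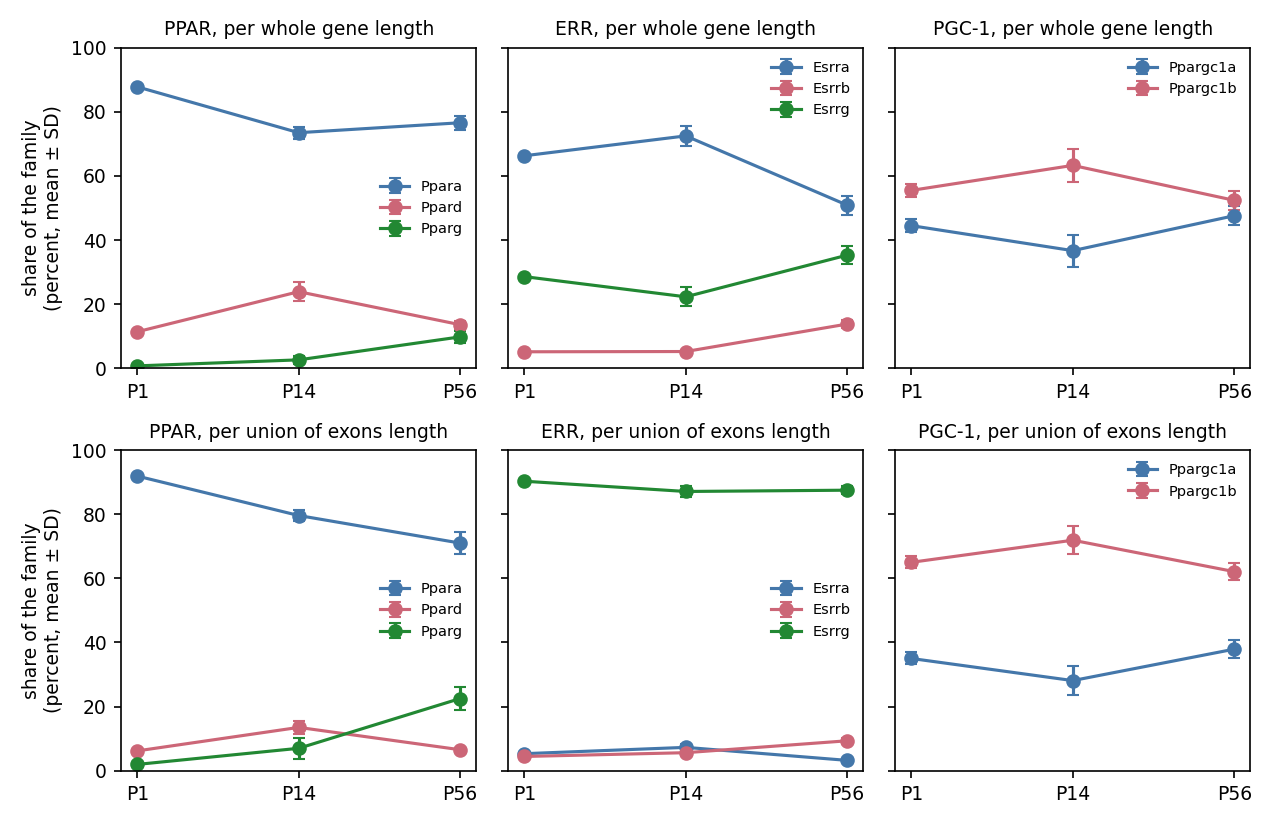
Share of each gene (y axis, percent, mean ± SD of 3 libraries) in the summed level of its family at each age, per whole-gene length (top row) and per exon length (bottom row). Pparg gains share in both rows, and Esrra leads the ERRs per whole gene (66.3% at P1) but not per exon (5.30%).

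The RXR partners did not move as one. Rxrg, the RXR of muscle, rose from 2.74 ± 0.401 CPM at P1 to 37.4 ± 8.48 at P14 and 55.3 ± 1.67 at P56 (log2 3.76 ± 0.17 and 0.57 ± 0.15, adjusted p = 2.39e-07 and 0.00914, edgeR). Rxra, at 93.7 ± 8.59, 111 ± 18.9 and 72.9 ± 10.5 CPM, fell by 0.60 ± 0.14 after P14 (adjusted p = 0.00413), and Rxrb fell by 0.65 ± 0.12 (adjusted p = 0.00161). With GC offsets 1 RXR gene rose and 0 fell after P14, and with the score as a term 0 rose and 2 fell, so that the later rise of Rxrg was not called. Of all 15817 genes, 8388 were called after P14 with GC offsets and 4433 with the score, against 8860 without either.

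Genes described as PPAR targets split. Of 27 measured, 16 rose and 6 fell from P1 to P14 (median log2 0.30, all genes 0.00), 7 rose and 14 fell from P14 to P56 (−0.43, all genes −0.02), and 10 rose and 11 fell over the whole span. Among all genes, 28.4% rose and 27.5% fell in the first interval, 27.5% and 28.5% in the second, and 30.9% and 31.7% over the span. Lpl, lipoprotein lipase, rose from 183 ± 6.15 CPM at P1 to 928 ± 61.9 at P56 (2.34 ± 0.08, adjusted p = 1.39e-08, edgeR), and the peroxisomal oxidation gene Ehhadh rose too (1.41 ± 0.13, adjusted p = 7.74e-06). Against these, the acyl-CoA thioesterase gene Acot1 fell over the same span (−4.89 ± 0.31, adjusted p = 6.16e-07), as did Angptl4, an inhibitor of lipoprotein lipase (−4.17 ± 0.21, adjusted p = 1.54e-07). Pdk4, the kinase that shuts off pyruvate dehydrogenase, went from 75.3 ± 5.33 CPM at P1 to 258 ± 33.3 at P14 and 27.1 ± 22.3 at P56 (1.78 ± 0.43 and −3.25 ± 0.46, adjusted p = 0.00613 and 0.000289). The uncoupling protein gene Ucp2 fell by 4.04 ± 0.15 after P14. Markers of other cell types moved in the same directions as this list, with 33 of 45 up and 4 down from P1 to P14 (median 1.93) and 0 up and 34 down from P14 to P56 (−2.25). With that score as a term 12 PPAR targets rose and 6 fell in the first interval, and 5 rose and 11 fell in the second. Of all 15817 genes, 3766 rose and 3811 fell in the first interval in that fit, and 2302 rose and 2131 fell in the second.

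Genes described as ERR targets went in both directions too. Of 22 measured, 9 rose and 5 fell from P1 to P14 (median 0.02), 8 rose and 3 fell from P14 to P56 (0.14), and 10 rose and 2 fell from P1 to P56 (0.17, all genes −0.03). In these comparisons 55.9%, 56.0% and 62.6% of all genes were called, in either direction. Ckmt2, the mitochondrial creatine kinase of muscle, rose in both intervals, from 47.3 ± 1.48 to 409 ± 61.6 and 785 ± 97.2 CPM (3.11 ± 0.13 and 0.94 ± 0.12, adjusted p = 1.23e-07 and 0.000136, edgeR). The mitofusin gene Mfn2 rose by 0.73 ± 0.11 and then fell by 0.63 ± 0.11. Ldhb (lactate dehydrogenase B) rose by 0.86 ± 0.07 after P14, whereas Atp5b, the ATP synthase β subunit, fell by 0.66 ± 0.13 from P1 to P56 (adjusted p = 0.00143). With the score as a term 3 of 22 rose and 3 fell after P14, and with GC offsets 9 rose and 0 fell, so that the fall of Mfn2 was not called. Of all 15817 genes, 2302 rose and 2131 fell after P14 with the score, and 5431 rose and 2957 fell with GC offsets.

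For the lists that follow, 55.9% of all genes were called in the first interval and 56.0% in the second. With the score as a term, 4433 of all 15817 genes were called in the second interval, against 8860 without it. With GC offsets, 3731 genes rose and 4547 fell in the first interval, against 4493 and 4350 without them. Factors of mitochondrial biogenesis were 2 up and 2 down of 13 from P1 to P14 (median 0.07) and 4 up and 3 down from P14 to P56 (0.16), or 2 up and 3 down with the score as a term. The mitochondrial rRNA methyltransferase gene Tfb1m rose by 1.00 ± 0.08 after P14 (33.6 ± 2.82, 36.7 ± 1.42 and 73.1 ± 4.83 CPM at the 3 ages; adjusted p = 8.40e-06, edgeR), and its relative Tfb2m by 0.65 ± 0.07. Tfam, which packages mitochondrial DNA, fell by 0.33 ± 0.09 by P14. Nrf1, whose letters stand in the Ppara window above, fell by 0.35 ± 0.06 over the whole span (adjusted p = 0.000741).

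Coactivators were 2 up and 3 down of 11 from P1 to P14 and 5 up and 1 down from P14 to P56, or 0 up and 1 down with the score as a term. Lpin1 (lipin 1, which binds PGC-1α and PPARα) rose from 62.9 ± 2.48 to 159 ± 40.8 CPM by P14 (1.34 ± 0.16, adjusted p = 8.84e-05, edgeR). Corepressors were 5 up and 3 down of 10, then 4 up and 2 down. Their first count was 2 up and 3 down with GC offsets, and their second 1 up and 2 down with the score as a term. Nrip1 (RIP140), a corepressor of PPARs and ERRs, rose in both intervals (0.87 ± 0.06 and 0.38 ± 0.06, adjusted p = 4.04e-06 and 0.000756), from 98.9 ± 1.09 to 234 ± 18.7 CPM.

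Upstream kinases and sensors were 4 up and 4 down of 17, then 6 up and 3 down, or 3 up and 5 down with the score as a term. Prkag2, an AMPK γ subunit gene, fell from 382 ± 38.9 CPM at P1 to 136 ± 13.3 at P14 and a mean of 93.8 at P56 (−1.49 ± 0.11 and −0.54 ± 0.11, adjusted p = 4.27e-06 and 0.00226, edgeR). Fnip1, a folliculin partner that restrains AMPK and PGC-1α, rose by 0.97 ± 0.07 after P14 (adjusted p = 7.60e-06). Genes that supply fatty acid ligands were 8 up and 2 down of 12, then 3 up and 8 down, or 2 up and 1 down with the score as a term. Abhd5, the activator of triglyceride lipase, rose from 19.5 ± 0.164 to 33.1 ± 2.00 and 56.0 ± 3.82 CPM, and Acsl3 (an acyl-CoA synthetase) fell by 2.26 ± 0.10 by P14 (adjusted p = 1.53e-07). Fabp4 and Gpihbp1, which capillary endothelium expresses, rose by 1.54 ± 0.42 and 1.78 ± 0.44 and then fell by 1.97 ± 0.43 and 2.26 ± 0.46, while all 12 endothelial markers rose and then fell. The part of endothelial RNA in the Fabp4 and Gpihbp1 values was not tested.

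**Figure D4:**
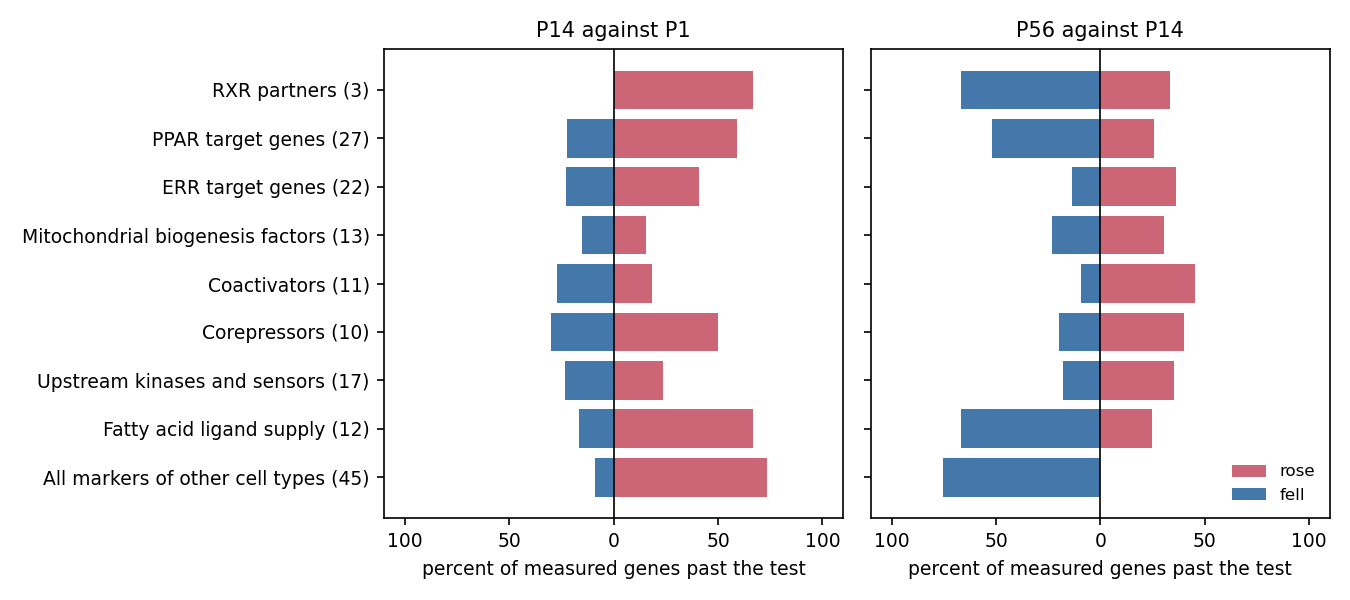
Percent of the measured genes of each list (number in brackets) that rose (right) or fell (left) by edgeR at adjusted p under 0.05, for P14 against P1 and P56 against P14. PPAR targets and ligand supply lean to rises and then to falls, as do the 45 markers of other cell types.

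Patterns across the 9 libraries had close matches elsewhere in the table. By Pearson's r of log2 CPM among 12003 genes, given as a description since age groups the libraries, Pparg was most like Stard13 (0.998), Crim1 (0.997) and Man1a (0.996). The nearest to Ppara were Pacsin2 (0.995), Cmya5 and Abhd14b (0.993 each), and to Ppard Dok7 (0.998), Nfix (0.997) and Pptc7 (0.996). Esrrb was nearest to Palm2 (0.995), Clpb (0.994) and Cisd2 (0.993), Esrrg to Nexn and Osbpl1a (0.986 each) and Afg3l2 (0.984), and Esrra to Ppp1r16a (0.981), Kdm4a (0.980) and Cluh (0.979). Perm1 was nearest to Cul9 (0.992), Dhrs11 (0.991) and Baz2a (0.990), and Ppargc1b to Mir1a-1 (0.996), Crtc2 and Denr (0.983 each). Ppargc1a, which varied little, had Pomt1 (0.937), Rnf187 (0.849) and Ap5s1 (0.845), and 0 genes above 0.95, where Pparg had 601.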

How the data were processed

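The authors deposited 1 table of raw counts per gene and library. The submitters' processing notes name featureCounts 1.4.2, STAR 2.4.0g1 and, for base calls, bcl2fastq 2.17.1.14, with build GRCm38. No gene in the table had a mean count under 10. Gene positions and lengths came from GENCODE M21 (GRCm38), which held 15763 of 15824 identifiers. In R 4.3.3, edgeR 4.0.16 tested the counts: filterByExpr left 15817 genes (7 removed), libraries were scaled by TMM, and the 9 libraries shared a quasi-likelihood fit on age alone (biological coefficient of variation 13.9%). Benjamini-Hochberg adjustment ran over all 15817 genes, at a threshold of 0.05. SE is the size of the log2 change divided by the square root of F. Ratios used a pseudocount of 0.5. Alternatives were other scalings and filters, DESeq2 1.42.0, limma voom (3.58.1), a replicate block, the marker score, GC offsets and each library left out. For the ratios they were only a pseudocount of 5 and each library left out. Members, gene lists and tests were chosen with earlier results of these data known. Named genes were the members, Pprc1, up to 3 list genes per direction with the largest called change at 1 CPM or more, and the 3 nearest patterns; not all of them are printed, and list genes are also described in comparisons other than those that selected them. Python 3.11.15 was used for permutations and figures. Pairs of libraries of an age differed by more than counting error (chi-square per degree of freedom 5.48 to 101).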

Additional observations from a re-analysis of the deposited data

Results flagged for a closer look

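The second interval's change less the first one's differed from 0 for 3 of the 9 members by edgeR's quasi-likelihood test, where 50.0% of all genes were called. The value was −2.80 for Ppard (adjusted p = 0.000183), −1.26 for Esrra (adjusted p = 0.0078) and −1.36 for Ppargc1b (adjusted p = 0.00169). All 3 rose in the first interval by edgeR, and Esrra and Ppargc1b fell in the second. Ppard and Esrra kept this call in all 18 alternatives, and Ppargc1b lost it with GC offsets (−0.45, adjusted p = 0.2).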

How the results depend on the processing

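Of 810 values of the members under 18 alternatives in 5 comparisons, 755 were unchanged in call, 18 lost a call, 34 gained one and 3 reversed. A reversal is a changed sign with a call in either fit. A changed sign with no call in either fit counts among the 755, and the test of any difference among ages has no sign. All 3 reversals came with the marker score as a term, for P56 against P14: Ppara −0.46, Esrrg −0.04 and Perm1 −0.76. The cause was not tested. That score also lowered the genes called to 4433 (from 8860) for P56 against P14 and to 4834 (from 7916) for the difference between the intervals.

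Members called for the difference between the intervals were 3 in the edgeR fit and 5 with DESeq2, limma voom, the replicate block or the marker score, and 3 to 6 with 1 library left out. Of 15817 genes, 7916 were called in the edgeR fit, 7883 with DESeq2, 7680 with limma voom, 7857 with the block and 4834 with the score. With 1 library left out, 6282 to 8182 genes were called. Leaving out 1 library gave 5 to 7 members called for P14 against P1 and for P56 against P14, beside 7533 to 9239 and 7693 to 8986 genes. The P56 minus P1 difference of the log2 ratio of Ppargc1a to Ppargc1b then ran from 0.11 to 0.27 and that of Perm1 to Ppargc1a from 0.81 to 1.08. The exact permutation test, which asks for any difference among the 3 ages and not for that one, gave an adjusted p of 0.00857 to 0.0607 and 0.00857 to 0.0557.

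Replicate numbers did not pair the libraries over all ages: 3 of 9 same-numbered pairs correlated above 0.1 (−0.26 to 0.57), and 1 of 9 libraries was nearest its own number in both other ages. Between P14 and P56 the same-numbered values were 0.57 for replicate 1, 0.02 for replicate 2 and 0.44 for replicate 3. The replicate block called Esrrb for P14 against P1 (0.42, adjusted p = 0.0252) and Ppard for P56 against P14 (−0.46, adjusted p = 0.0387). GC offsets moved the median of all genes to 0.15 for P56 against P14. Family shares per length moved with the length used, as given above.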
